A study of Mus musculus with 16 samples.

Results

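The extracellular matrix genes of mouse embryonic stem (ES) cells were examined here: all collagen chain genes (symbols of the form Col, a number, a and a number), all laminin chain genes (Lama, Lamb and Lamc with a number), and Fn1, Sparc, Dcn, Lum and Postn. The symbols alone chose them, and 60 such genes were present in every one of 3 deposited expression tables, among 24320 gene names in 1 table and 24394 in each of the others. They comprised 11 fibrillar collagens, 6 chains of collagen IV, 27 other collagens, 11 laminin chains and 5 glycoproteins or proteoglycans. A gene was taken as expressed in a table if 2 or more of its columns held a value of 1 or above. By that measure 20 of the 60 were expressed in the Pml table, 24 in the arsenite table and 23 in the Trim33 table, 16 in all 3 tables, 31 in at least 1 and 29 in none.

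Collagens are secreted proteins whose chains wind into triple helices. Fibrillar collagens form the tension-bearing fibres of connective tissue, whereas collagen IV and the laminins, which are heterotrimers of an alpha, a beta and a gamma chain, build the sheet-like basement membrane on which epithelial cells rest. Laminins are among the earliest matrix proteins of the mammalian embryo, ES cells grown without feeders make much of their own matrix, and fibrillar collagens are better known as products of fibroblasts and other mesenchymal cells.

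The libraries came from the mouse ES cell line E14Tg2a.IV (strain given as C57BL/6), grown feeder-free in serum with leukemia inhibitory factor, and each group had 2. A further ES cell line, CCE, is mentioned with the culture conditions but is tied to no sample. Whether the 2 libraries of a group were separate cultures is not stated, so the p-values reflect how far apart these libraries lay, a spread that may be only technical. One table held untreated cells, wild type (WT) or Pml knockout (Pml KO); PML is the scaffold protein of PML nuclear bodies. A second held WT cells, untreated or exposed to 200 µM sodium arsenite for 2 h, which causes oxidative stress. The remaining table held cells labelled WT or Trim33 KO under 1 of 2 treatments of 2 h: activin A at 50 ng/ml, which signals through SMAD2 and SMAD3, or SB431542 at 10 µM, which blocks the type I receptors for activin; TRIM33 is a chromatin protein that can bind SMAD2 and SMAD3. No untreated libraries were part of that table, and how many knockout clones were used is not stated in the labels. The Pml table was in FPKM and the others in RPKM, both of which scale reads for gene length and library size, and the tables were compared only within themselves.

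The labels were checked first. Pml read 49.8 and 45.1 FPKM in WT and 32.0 and 33.5 in Pml KO, so its transcript was lower but present. In the Trim33 table, Trim33 was at 20.1 and 23.5 RPKM in the libraries labelled WT with activin A and 2.53 and 2.79 in those labelled KO with activin A, but at 2.94 and 2.44 in those labelled WT with SB431542 and 18.3 and 24.6 in those labelled KO with SB431542. The genotype label was thus contradicted by Trim33 in all 4 SB431542 libraries, which are called by their labels throughout. Eif2s3y, a Y-linked gene, read 16.2 and 20.6 FPKM in WT against 1.10 and 0.753 in Pml KO, and in the table of Trim33 libraries it read 0 to 0.143 RPKM in KO with activin A and WT with SB431542 against 38.3 to 41.0 in the other 4 libraries. In both tables the knockout and any other difference between the lines cannot be told apart. All 9 pluripotency markers examined (Pou5f1, Sox2, Nanog and others) reached a value of 1 in every table. The steps between low values gave a depth of about 46700000 to 48500000 reads for libraries of the arsenite table and 31200000 to 39400000 for those of the Trim33 table, and no depth for the Pml table.

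Promoter sequences are shown for a pair of neighbouring collagen IV genes that moved together in these data, Col4a1 and Col4a2, and for 2 fibrillar collagen genes that rose in Pml KO, Col1a2 and Col3a1. They come from RefSeq for GRCm38.p6 (the assembly also called mm10) and run from 250 bases before to 50 bases after the transcription start, 5′ to 3′ on the gene's own strand. Capitals mark CCAAT and TATAAA, searched on both strands, so that CCAAT on the opposite strand reads ATTGG. The windows are chr8:11312777-11313076 on the minus strand for Col4a1, chr8:11312555-11312854 on the plus strand for Col4a2, chr6:4505368-4505667 on the plus strand for Col1a2 and chr1:45311288-45311587 on the plus strand for Col3a1.
Col4a1: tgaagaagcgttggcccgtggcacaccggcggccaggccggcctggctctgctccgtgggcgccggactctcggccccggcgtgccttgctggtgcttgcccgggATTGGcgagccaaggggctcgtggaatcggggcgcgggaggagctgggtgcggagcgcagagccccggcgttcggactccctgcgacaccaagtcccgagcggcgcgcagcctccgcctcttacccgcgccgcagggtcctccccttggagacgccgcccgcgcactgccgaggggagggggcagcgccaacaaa
Col4a2: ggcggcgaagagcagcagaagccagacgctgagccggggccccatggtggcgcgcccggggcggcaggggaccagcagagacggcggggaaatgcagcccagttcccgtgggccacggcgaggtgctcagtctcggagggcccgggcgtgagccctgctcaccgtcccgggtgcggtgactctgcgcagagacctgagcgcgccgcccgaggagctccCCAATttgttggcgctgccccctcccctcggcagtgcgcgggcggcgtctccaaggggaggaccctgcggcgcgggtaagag
Col1a2: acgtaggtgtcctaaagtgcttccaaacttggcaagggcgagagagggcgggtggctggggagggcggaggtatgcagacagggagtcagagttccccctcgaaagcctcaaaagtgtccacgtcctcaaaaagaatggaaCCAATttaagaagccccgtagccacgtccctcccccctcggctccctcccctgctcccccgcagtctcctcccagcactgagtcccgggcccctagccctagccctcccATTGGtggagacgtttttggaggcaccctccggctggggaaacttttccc
Col3a1: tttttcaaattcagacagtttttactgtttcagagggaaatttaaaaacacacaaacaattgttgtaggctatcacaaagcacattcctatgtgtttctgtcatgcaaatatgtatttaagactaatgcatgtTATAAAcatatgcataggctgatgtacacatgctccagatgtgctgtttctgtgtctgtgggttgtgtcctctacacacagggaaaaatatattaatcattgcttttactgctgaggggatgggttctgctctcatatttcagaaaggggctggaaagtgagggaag
The starts used for the windows of Col4a1 (11312826) and Col4a2 (11312805) lie 21 bases apart on opposite strands, and these windows share 78 bases. The whole-gene interval of Col4a1 given below runs on to 11312889, past the start used here. Col3a1 held the only TATAAA of these 4 windows and no CCAAT, and each of the others held CCAAT. Among 32851 promoter windows of the same length, 37.4% held CCAAT and 13.6% held TATAAA. Promoter windows were matched for 19 of the 31 expressed genes (22 windows), of which 9 windows held CCAAT and 2 held TATAAA. The AP-1 motif TGANTCA was in none of the 22 windows and in 7.81% of all windows, and CAGAC, a short sequence recognised by SMAD proteins, was in 16 of the 22 and in 49.6% of all. These matches describe the letters only.

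A few genes held most of the summed transcript level of the matrix genes in every library. Fn1, which encodes fibronectin, Sparc, which encodes a collagen-binding glycoprotein of basement membranes, Col18a1, which encodes the basement membrane collagen that endostatin is cleaved from, and Lamc1, the gamma chain of most laminins, together held 69.4% to 80.4% of the summed level of all 60 genes (values per length, each library by itself). Lamb1 and Lama5 came next in the Pml table and in untreated cells. With arsenite, Lama5 (65.1 and 71.9 RPKM) lay above Lamc1 (49.8 and 52.3 RPKM). The collagen IV chains Col4a1 and Col4a2 were moderate, at 5.23 to 23.5 and 2.36 to 12.5 in any library. At the other end, Dcn and Lum, proteoglycan genes of connective tissue, and Postn, a fibroblast matrix gene, stayed under 1 in every library except for Dcn in 2 libraries of the Trim33 table (1.60 and 1.17 RPKM). The expression limit passed close to some genes. In the Pml table Col2a1 (second-highest value 1.08) and Col5a3 (1.17) were just inside and Col13a1 (0.959) and Col4a5 (0.755) just outside. In the arsenite table Col22a1 (1.10) and Col5a1 (1.19) were just inside and Col17a1 (0.980) and Col1a1 (0.929) just outside, and in the Trim33 table Col7a1 (1.02) and Col8a1 (1.09) were just inside and Col9a3 (0.863) and Col6a5 (0.801) just outside.

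In Pml KO cells, both expressed collagen IV chains, 4 of 6 expressed fibrillar collagens, Lamb1, Sparc and Fn1 were higher than in WT, and Lama1, Lamc1 and the fibrillar chain Col5a3 were lower. Of the 20 genes tested, 13 were higher and 4 lower at an adjusted p under 0.05 (limma on log2(FPKM + 1), Benjamini-Hochberg over 11648 genes), where 35.5% of all tested genes were called, 16.6% higher and 18.9% lower. The median difference was 0.58 on that log2 scale, beside -0.02 over all tested genes. The 2 groups did not overlap for 19 of the 20, as for 69.4% of all genes, and 9 of the 20 were called with a log2 difference of at least 1, as were 3.87% of all genes. For 7 of the 20, values of at least 1 occurred in 1 group only (5 in Pml KO, 2 in WT), and such genes were expressed by the rule only through that group, which in part fixes their direction. Among the other 13 genes, with values of at least 1 in both groups, 9 were higher and 2 lower, 4 were called with a log2 difference of at least 1, and the median was 0.45. The shares over all genes given above were not restricted in this way.

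Of the fibrillar chains, Col1a1, Col1a2 and Col3a1 were under 1 in both WT libraries and so were expressed by the rule only through Pml KO, whereas Col5a1 was above 1 in all 4 libraries. Col1a1, the main chain of collagen I, read 0.192 and 0.208 FPKM in WT and 8.97 and 10.5 in Pml KO, a log2 difference of 3.16 ± 0.11 (SE, limma, adjusted p = 3.45e-07). Col3a1, the chain of collagen III, read 0.0845 and 0.0174 FPKM in WT and 4.45 and 4.73 in Pml KO (2.41 ± 0.11, limma, adjusted p = 1.77e-06). Col5a1, a collagen V chain that helps start fibrils, read 1.65 and 1.39 FPKM in WT and 7.33 and 7.80 in Pml KO (1.77 ± 0.10, limma, adjusted p = 5.87e-06). Both WT libraries of Col1a1 and Col3a1 were near 0 and every Pml KO library was above 4, so the groups lay far apart. Col1a2, the partner chain in collagen I, read 0.0276 and 0.0283 FPKM in WT and 1.36 and 1.35 in Pml KO (1.20 ± 0.12, limma, adjusted p = 0.000151). Per length, Col1a1 stood 6.62 to 7.75 times above Col1a2 in all 4 libraries. Col5a3, another collagen V chain, went the other way: it read 1.35 and 1.17 FPKM in WT and 0.242 and 0.257 in Pml KO (-0.86 ± 0.12, limma, adjusted p = 0.000987). Col2a1, the cartilage collagen, read 0.819 and 0.901 against 1.08 and 1.31 FPKM and was not called (0.24 ± 0.12, limma, adjusted p = 0.156).

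The 2 collagen IV chains of the commonest basement membrane trimer both rose in Pml KO. Col4a1 (chr8:11198423-11312889) read 6.22 and 5.23 FPKM in WT and 15.3 and 15.6 in Pml KO (1.30 ± 0.09, limma, adjusted p = 1.83e-05). Col4a2 (chr8:11312805-11449287) read 2.63 and 2.36 FPKM in WT and 10.6 and 11.3 in Pml KO (1.77 ± 0.09, limma, adjusted p = 3.05e-06). Pml KO libraries were higher in each case with no overlap, and the Col4a1 to Col4a2 ratio per length was 2.36 and 2.21 in WT and 1.44 and 1.38 in Pml KO. Among other collagens, Col7a1, the anchoring-fibril collagen, read 0.446 and 0.392 FPKM in WT and 2.37 and 2.62 in Pml KO (1.30 ± 0.11, limma, adjusted p = 7.07e-05). Col26a1 read 1.69 and 2.21 FPKM in WT and 0.341 and 0.148 in Pml KO (-1.24 ± 0.14, limma, adjusted p = 0.000303). Each of these 2 genes was at 1 or more in a single group. Col18a1, the most abundant collagen, read 85.6 and 80.0 FPKM in WT and 109.6 and 110.8 in Pml KO (0.41 ± 0.05, limma, adjusted p = 0.000543). Col9a2 was higher by 0.45 ± 0.10 (limma, adjusted p = 0.0105), a call lost when low genes were not filtered (adjusted p = 0.0746).

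The laminin chains divided by subunit. Lamb1, the beta chain of the main embryonic laminins, read 22.9 and 21.9 FPKM in WT and 37.1 and 37.4 in Pml KO (0.71 ± 0.06, limma, adjusted p = 4.7e-05). Lamc1, the gamma chain that pairs with Lamb1, read 69.6 and 65.2 FPKM in WT and 50.9 and 55.7 in Pml KO (-0.33 ± 0.06, limma, adjusted p = 0.004). For both the groups were apart, with Lamb1 high and Lamc1 low in Pml KO. The Lamc1 to Lamb1 ratio per length was therefore 3.03 and 2.98 in WT and 1.37 and 1.49 in Pml KO. Lama1, the alpha chain of the first laminin made by the embryo, read 10.1 and 8.82 FPKM in WT and 6.62 and 6.11 in Pml KO (-0.50 ± 0.09, limma, adjusted p = 0.00364). Lama5, the other abundant alpha chain, read 28.0 and 23.0 against 28.9 and 30.1 FPKM and was not called (0.21 ± 0.09, limma, adjusted p = 0.0989), but was without WT replicate 1 (0.35, adjusted p = 0.00708). Lamb2 was not called either (5.60 and 5.15 against 4.66 and 5.39 FPKM, limma, adjusted p = 0.55), and its groups overlapped.

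Both abundant glycoprotein genes were higher in Pml KO. Sparc read 78.0 and 77.4 FPKM in WT and 128 and 135 in Pml KO (0.75 ± 0.05, limma, adjusted p = 1.25e-05). Fn1 read 108 and 96.4 FPKM in WT and 129 and 139 in Pml KO (0.39 ± 0.07, limma, adjusted p = 0.00265). The summed level of all 60 genes was 440 and 406 FPKM in WT and 576 and 605 in Pml KO.

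**Figure D1:**
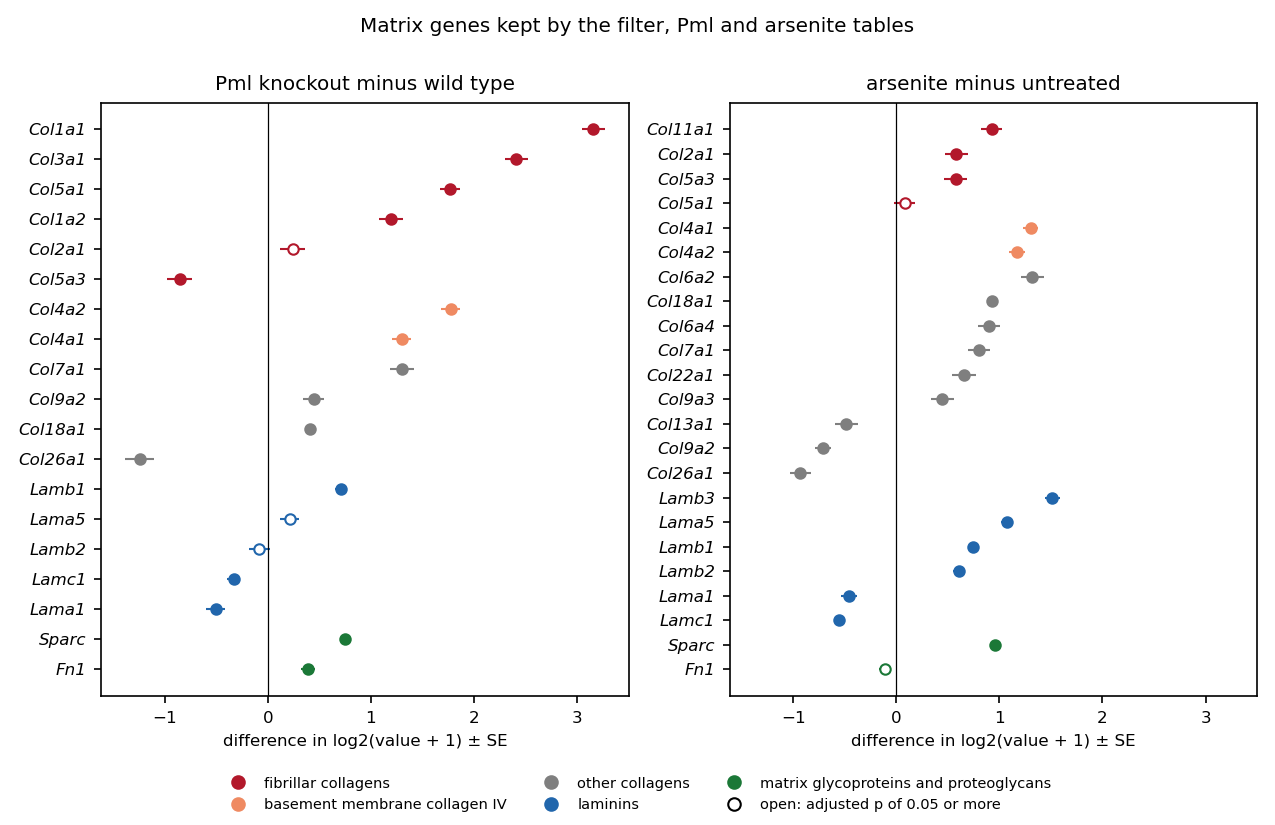
Differences in log2(value + 1) with standard errors (x axis) for expressed matrix genes (y axis), Pml KO minus WT on the left and arsenite minus untreated on the right, coloured by class, with open circles at an adjusted p of 0.05 or more. Col1a1 lies at 3.16 on the left, and Col4a1 lies at 1.30 on both sides.

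Genes that act on the matrix differed alongside its structural chains in Pml KO. Of 14 tested genes for collagen folding and crosslinking, 8 were higher and 2 lower (median 0.37), where 16.6% of all tested genes were higher, 18.9% lower and the median was -0.02. Among them, Bmp1, the protease that trims procollagen, rose by 3.43 on the log2 scale and Serpinh1, the collagen chaperone HSP47, by 1.25, and Loxl2, a lysyl oxidase that crosslinks collagen, by 1.39. Of 14 tested matrix receptors, 10 were higher and 0 lower (median 0.38), with integrin alpha 3 (Itga3) up by 1.45 and the hyaluronan receptor Cd44 up by 1.96. Of 12 tested matrix proteases and inhibitors, 9 were higher and 0 lower (median 1.07), and Timp2, an inhibitor of matrix metalloproteinases, rose by 1.87. Of 7 other basement membrane components, 4 were higher and 0 lower (median 0.30), and Pxdn, which encodes the enzyme that crosslinks collagen IV, rose by 1.85. Cd44, Itga1, Itgb3, Timp2, Mmp9, Plat, Plau, Adamts1, Loxl1 and P3h3 were under 1 in both WT libraries. They were thus expressed by the rule only through Pml KO, which in part fixes their direction and the counts and medians of these lists.

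Markers of other cell types were measured in the same libraries, since in bulk samples more cells of a type and more RNA per cell cannot be told apart. The summed level of 12 fibroblast and feeder markers was 110.5 to 111.6 FPKM in WT and 536 to 567 in Pml KO. Of the 8 tested, 7 were higher, led by Tagln (4.70), Acta2 (4.02) and Vim (1.34), and 1 was lower. The lower one was Thy1, at 7.10 and 7.45 FPKM in WT and 4.34 and 4.21 in Pml KO. Most of each sum was Vim (87.2 and 90.1 FPKM in WT, 221 and 230 in Pml KO) and Tagln (10.5 and 8.57, 263 and 278). Prrx1, Fap and Fbn1 were under 1 in every library. The sum of 10 trophectoderm markers was 73.8 to 80.5 FPKM in WT and 738 to 748 in Pml KO, with 8 of 9 tested higher and 1 lower and Elf5 under 1 in every library. The sum of 12 primitive endoderm markers, a cell type that secretes collagen IV and laminin, was 16.1 to 16.7 FPKM in WT and 7.90 to 10.8 in Pml KO, with 0 of 5 tested higher and 3 lower, and with Sox17, Foxa2, Pdgfra, Hnf4a, Cubn and Thbd under 1 throughout. The sum of 6 endothelial markers was 15.3 to 15.5 FPKM in WT and 13.8 to 15.7 in Pml KO, with 0 of 2 tested higher and 1 lower. Of these, Cdh5, Kdr, Tie1 and Flt1 were under 1 in every library. Pdgfrb, Twist2, Cdx2, Gata3 and Hand1 were under 1 in both WT libraries, and Gata4 and Sox7 in both Pml KO libraries, which in part fixes their directions. The part of these cell types in the matrix differences was not tested.

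After 2 h of arsenite, collagen IV, Lama5, Lamb1, Lamb2, Lamb3, Sparc and Col18a1 were higher than in untreated cells, and Lama1, Lamc1 and Col9a2 were lower. Of the 24 genes tested, 17 were higher and 5 lower (limma on log2(RPKM + 1), Benjamini-Hochberg over 12136 genes), in a comparison where 67.7% of all tested genes were called, 40.7% higher and 27.0% lower. The median difference was 0.70, beside 0.08 over all tested genes. The groups did not overlap for 23 of the 24, as for 84.5% of all genes, and 5 of the 24 were called with a log2 difference of at least 1, as were 7.22% of all genes. For 8 of the 24, values of at least 1 occurred in 1 group only: Col11a1, Col22a1, Col5a3, Col6a2, Col6a4 and Col7a1 in arsenite, all called higher, and Col13a1 and Col26a1 in untreated, both called lower. Among the other 16 genes, 11 were higher and 3 lower, 4 were called with a log2 difference of at least 1, and the median was 0.67. Here too, the shares over all genes were not restricted to values of at least 1 in both groups.

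Collagen IV rose by similar amounts in both chains. Col4a1 read 5.90 and 6.68 RPKM untreated and 16.3 and 17.6 with arsenite (1.30 ± 0.08, limma, adjusted p = 6.4e-06). Col4a2 read 3.71 and 3.65 RPKM untreated and 9.06 and 9.97 with arsenite (1.17 ± 0.08, limma, adjusted p = 1.22e-05). The Col4a1 to Col4a2 ratio stayed between 1.59 and 1.83 in the 4 libraries. The fibrillar collagens that led in Pml KO were low here: Col1a1 was at 0.842 to 0.937 RPKM, Col1a2 at 0.112 to 0.449 and Col3a1 at 0.185 to 0.390, none of them expressed by the rule. Col11a1, a chain of collagen XI, read 0.464 and 0.420 RPKM untreated and 1.72 and 1.75 with arsenite (0.92 ± 0.10, limma, adjusted p = 0.000142). Col2a1 was higher by 0.58 ± 0.11 (limma, adjusted p = 0.0027), and Col5a1 was not called (0.08 ± 0.10, limma, adjusted p = 0.521).

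Col18a1 read 91.9 and 85.5 RPKM untreated and 166 and 173 with arsenite (0.93 ± 0.05, limma, adjusted p = 2.9e-06). Col6a2, a chain of the microfibrillar collagen VI, read 0.823 and 0.734 RPKM untreated and 3.09 and 3.82 with arsenite (1.32 ± 0.11, limma, adjusted p = 4.14e-05). Col9a2, a chain of the fibril-associated collagen IX, read 14.4 and 16.1 RPKM untreated and 8.37 and 9.43 with arsenite (-0.71 ± 0.08, limma, adjusted p = 0.000153). Arsenite libraries were thus high for the first 2 genes and low for the third, with no overlap. Col6a4, Col7a1, Col22a1 and Col9a3 were also called higher, by 0.90, 0.80, 0.66 and 0.44 on the log2 scale, and Col26a1 and Col13a1 lower, by -0.93 and -0.49. Col5a3 was called higher by 0.58. Under quantile normalization the calls of Col22a1, Col9a3 and Col5a3 were lost (limma, adjusted p = 0.103, 0.0809 and 0.128), and that of Col9a3 also without arsenite replicate 2 (adjusted p = 0.0574).

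All 7 expressed laminin chains were called with arsenite, 5 higher and 2 lower. Lama5 read 31.3 and 32.6 RPKM untreated and 65.1 and 71.9 with arsenite (1.07 ± 0.05, limma, adjusted p = 3.53e-06). Lama1 read 9.27 and 8.57 RPKM untreated and 5.88 and 6.52 with arsenite (-0.46 ± 0.08, limma, adjusted p = 0.0013). The Lama5 to Lama1 ratio per length was 3.38 and 3.81 untreated and 11.1 and 11.0 with arsenite, so the balance of the 2 alpha chains lay apart between the groups. Lamb3, a laminin beta chain of epithelial basement membranes, read 2.78 and 2.75 RPKM untreated and 9.88 and 9.56 with arsenite (1.51 ± 0.07, limma, adjusted p = 2.72e-06). Lama3, an alpha chain that pairs with it, was under 1 in all 4 libraries, at 0.285 and 0.259 RPKM untreated and 0.763 and 0.815 with arsenite. Lamb1 read 20.1 and 19.2 RPKM untreated and 33.6 in both arsenite libraries (0.75 ± 0.05, limma, adjusted p = 9.15e-06). Lamb2, a beta chain best known from the kidney filter and the neuromuscular junction, read 12.5 and 11.9 RPKM untreated and 18.9 and 19.2 with arsenite (0.60 ± 0.05, limma, adjusted p = 5.25e-05). Lamc1 read 76.1 and 75.0 RPKM untreated and 49.8 and 52.3 with arsenite (-0.56 ± 0.04, limma, adjusted p = 2.03e-05). The ratio of Lamc1 to Lamb1 was 3.79 and 3.91 untreated and 1.48 and 1.56 with arsenite.

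**Figure D2:**
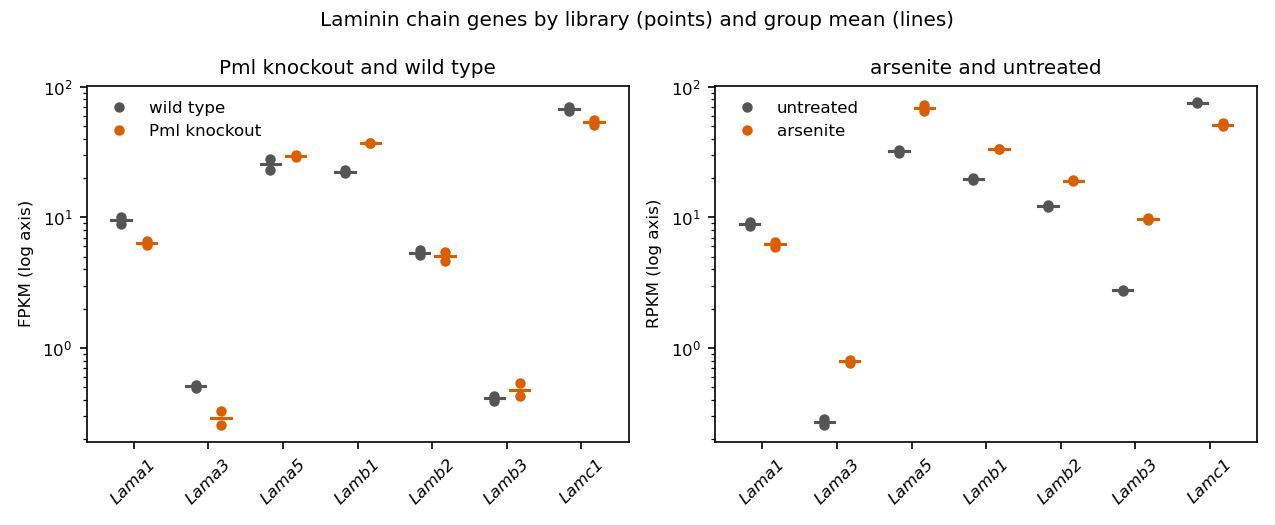
Levels of 7 laminin chain genes (x axis) in each library (points) with group means (lines), in FPKM for the Pml table and RPKM for the arsenite table, both on log axes. Lamb1 was higher and Lama1 and Lamc1 lower in Pml KO and with arsenite, and Lama5 and Lamb3 were higher with arsenite; Lama3 and, in the Pml table, Lamb3 were under 1.

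Sparc read 46.8 and 48.3 RPKM untreated and 95.5 and 91.4 with arsenite (0.96 ± 0.04, limma, adjusted p = 1.65e-06). Fn1, the most abundant matrix gene of this table, read 191.5 and 190.5 RPKM untreated and 167 and 188 with arsenite and was not called (-0.11 ± 0.06, limma, adjusted p = 0.121), although the groups did not overlap and it was called lower under median-ratio scaling (-0.20, limma, adjusted p = 0.0130) and without arsenite replicate 2 (-0.20, adjusted p = 0.0058).

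Around the structural chains, with 40.7% of all genes called higher, 27.0% lower and a median of 0.08, 7 of 11 tested matrix receptors were higher and 1 lower with arsenite (median 0.52), among them Ddr1, a collagen-activated kinase (1.53), and Itgb4, the laminin-binding integrin chain of hemidesmosomes (1.91), while Itga5, the fibronectin-binding integrin chain, fell by 1.14. The 14 tested folding and crosslinking genes split into 6 higher and 6 lower (median 0.08). Bmp1 (1.88), Pcolce (1.07) and Serpinh1 (0.58) were higher, and P4ha1, a collagen prolyl hydroxylase, fell by 0.98. Of 10 proteases and inhibitors, 7 were higher and 2 lower (median 0.42), and of 7 other basement membrane components, 4 were higher and 2 lower (median 0.42). The summed primitive endoderm markers were 13.6 to 15.1 RPKM untreated and 26.8 to 28.8 with arsenite (4 of 6 tested higher, 0 lower; Sox17, Foxa2, Pdgfra, Hnf4a, Cubn and Thbd under 1 throughout). The summed fibroblast and feeder markers were 75.6 to 76.7 and 169 to 173 RPKM (6 of 7 higher, 1 lower, namely Thy1). S100a4, Twist2, Prrx1, Fap and Fbn1 of these were under 1 throughout. The trophectoderm markers summed to 102.5 to 103.6 and 174 to 179.8 RPKM (7 of 8 higher, 1 lower). The summed endothelial markers were 44.3 to 46.8 and 64.2 to 65.4 RPKM (3 of 3 higher). Most of each endothelial sum was Pecam1, at 39.4 and 42.2 RPKM untreated and 55.1 and 54.4 with arsenite. Tie1, at 0.223 and 0.221 RPKM untreated and 1.47 and 1.03 with arsenite, was expressed by the rule only through arsenite. Cdh5, Kdr and Flt1 of that list and the trophectoderm marker Elf5 were under 1 throughout. Itga1, P3h3, Loxl3, Plat, Timp3, Gata6, Dab2, Pdgfrb, Gata3 and Hand1 were under 1 in both untreated libraries. They were thus expressed by the rule only through arsenite, which in part fixes their direction. The 9 pluripotency markers summed to 5337 to 5417 RPKM untreated and 2745 to 2861 with arsenite, with 8 lower and 1 higher. Their part in the matrix differences was not tested.

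The Pml and arsenite comparisons share no libraries. Of 17 matrix genes tested in both, 12 were called in both (70.6%), beside 2883 of 11162 genes (25.8%). Col4a1, Col4a2, Lamb1, Sparc, Col18a1 and Col7a1 were among those higher in both, while Lama1, Lamc1 and Col26a1 were lower in both and Col5a3 and Col9a2 opposite. The direction was shared by 83.3% of these 12, beside 70.8% of all genes called in both tables. Among the 12, Col7a1, Col26a1 and Col5a3 had values of at least 1 in a single group of each comparison, which in part fixes their directions.

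In the Trim33 table few matrix genes differed beyond the spread between libraries, and that spread was itself large for the collagens. With activin A, 3 of 23 tested genes were higher and 1 lower in the libraries labelled KO (limma, Benjamini-Hochberg over 11914 genes), where 9.43% of all tested genes were called, 6.61% higher and 2.82% lower. The median difference was 0.21, beside 0.01 over all genes, and the groups did not overlap for 14 of the 23, as for 60.7% of all genes. Lama3 and Col9a2 were called with a log2 difference of at least 1, as were 3.08% of all genes. Lama3 and Col5a3 had values of at least 1 only in KO with activin A and WT with SB431542 and were expressed by the rule only through those groups. Among the 15 genes with values of at least 1 in both groups compared, 1 was higher and 1 lower with each treatment, while the shares over all genes were not restricted in this way. With SB431542, 1 of 23 was higher and 2 lower in the libraries labelled KO, where 9.56% of all genes were called (3.01% higher, 6.55% lower), the median was -0.34 beside -0.01, and 15 of the 23 did not overlap, as for 49.2% of all genes. The same 2 genes were called with a log2 difference of at least 1, as were 3.22% of all genes.

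Lama3, a laminin alpha chain of epithelial basement membranes, read 0.871 and 0.635 RPKM in the libraries labelled WT with activin A, 6.39 and 5.57 in KO with activin A, 5.90 and 5.28 in WT with SB431542 and 0.448 and 0.573 in KO with SB431542. It was higher in KO with activin A by 1.99 ± 0.17 (limma, adjusted p = 0.000503) and lower in KO with SB431542 by -2.13 ± 0.17 (limma, adjusted p = 0.000339). The 4 libraries with low Trim33 were the 4 with Lama3 above 5 RPKM. Its partner chain Lamb3 was under 1 in all 8 libraries. Col9a2 (chr4:121039566-121055325) read 2.31 and 2.54 RPKM in WT with activin A, 8.53 and 9.30 in KO with activin A, 8.84 and 9.23 in WT with SB431542 and 3.05 and 2.68 in KO with SB431542. Its differences were 1.53 ± 0.15 with activin A (limma, adjusted p = 0.00115) and -1.38 ± 0.15 with SB431542 (limma, adjusted p = 0.00159). Col18a1 ran the other way, at 75.9 and 61.7 RPKM in WT with activin A, 42.1 and 44.0 in KO with activin A, 39.3 in both libraries of WT with SB431542 and 57.6 and 60.3 in KO with SB431542. It was lower in KO with activin A (-0.66 ± 0.13, limma, adjusted p = 0.0169) and higher in KO with SB431542 (0.57 ± 0.13, limma, adjusted p = 0.0262). The first call was lost without either KO library or without WT replicate 1 (limma, adjusted p from 0.0688 to 0.122), and the second without any 1 of its 4 libraries (adjusted p from 0.0521 to 0.112). Col5a3 was called with activin A alone (0.76 ± 0.20, limma, adjusted p = 0.0449), and the call was lost when any 1 library of the 2 groups compared was left out (adjusted p from 0.107 to 0.244).

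Averaged over both genotype labels, which does not depend on which SB431542 libraries carry which genotype, 0 of 23 matrix genes were called between activin A and SB431542 (limma, adjusted p = 0.9996 for each). By the same fit 1 had an unadjusted p under 0.05, and 0.109% of all genes were called, 13 of them higher and 0 lower. With 2 libraries a group, the lack of a call does not show that a gene did not differ. Lama5 had the largest difference between the treatments, 0.46 ± 0.15. The lowest was -0.10 for Col9a2, and the median was 0.12, beside -0.01 over all genes.

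The difference between genotype labels was also compared between the treatments (KO minus WT with activin A, minus KO minus WT with SB431542). Of 23 genes, 8 had a higher difference with activin A and 1 a lower one (limma, Benjamini-Hochberg over 11914 genes), where 26.3% of all genes were called, 16.1% higher and 10.1% lower, and all 9 calls reached a log2 value of at least 1, as did 16.6% of all genes. The median was 0.56, beside 0.03 over all genes. Lama3 led with 4.12 ± 0.24 (limma, adjusted p = 2.2e-05), followed by Col9a2, and Col18a1 was the one in the lower direction. The label differences with activin A and with SB431542 had opposite signs for each of these 3 genes, so this comparison adds up their sizes. Lama3, Col5a3, Col1a2 and Col11a1, all called higher here, had values of at least 1 only in KO with activin A and WT with SB431542. Both of those groups count positively in this comparison, which in part fixes the direction of such genes.

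Fibrillar and basement membrane collagens differed widely between the 2 libraries of a group. Col1a1 (chr11:94936224-94953042) read 27.4 and 5.07 RPKM in KO with activin A and 22.4 and 3.60 in WT with SB431542, but 3.21 and 2.29 in WT with activin A and 2.42 and 2.10 in KO with SB431542. Col1a2 read 9.12 and 2.10 RPKM, 7.93 and 1.35, 0.855 and 0.791, and 0.699 and 0.892 in the same order of groups. In both genes, replicate 1 of KO with activin A and replicate 1 of WT with SB431542 stood apart from the other 6 libraries. Col4a1 read 23.5 and 10.2 RPKM in KO with activin A, 22.0 and 10.0 in WT with SB431542, 7.62 and 7.10 in WT with activin A and 5.62 and 7.84 in KO with SB431542. Col4a2 read 12.5 and 4.64, 12.4 and 4.13, 4.54 and 3.62, and 3.42 and 3.59 RPKM in that order. The same 2 libraries were the highest for both collagen IV chains and for Col11a1 (1.85 and 1.83 RPKM, against 0.297 to 0.811 elsewhere) and Sparc (232 and 234 RPKM, against 107 to 168 elsewhere). None of these 6 genes was called between genotype labels with either treatment (limma, adjusted p from 0.0903 to 0.335). Fitted with the 2 activin A groups alone, Sparc and Col1a2 were called higher in KO (limma, adjusted p = 0.0358 and 0.0498).

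The abundant laminin chains and fibronectin showed no call between genotype labels. Lamc1 read 45.8 and 36.6 RPKM in KO with activin A, 47.3 and 37.6 in WT with activin A, 32.7 and 42.6 in KO with SB431542 and 44.5 and 31.3 in WT with SB431542. Lamb1 read 29.7 and 24.1, 26.0 and 24.6, 20.03 and 23.6, and 25.7 and 20.01 RPKM in that order, and the Lamc1 to Lamb1 ratio lay between 1.52 and 1.82 in all 8 libraries. Lama5 read 16.7 and 13.7, 16.7 and 11.6, 8.86 and 11.0, and 12.5 and 9.26 RPKM. For all 3 chains the groups labelled KO and WT overlapped under both treatments. Fn1 read 73.6 and 52.4 RPKM in KO with activin A, 68.8 and 65.4 in WT with activin A, 50.6 and 75.3 in KO with SB431542 and 65.3 and 41.3 in WT with SB431542, and overlapped likewise. Among these 4 genes the differences with activin A ran from -0.11 ± 0.26 for Fn1 to 0.11 ± 0.21 for Lama5 (limma, adjusted p from 0.799 to 0.928).

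**Figure D3:**
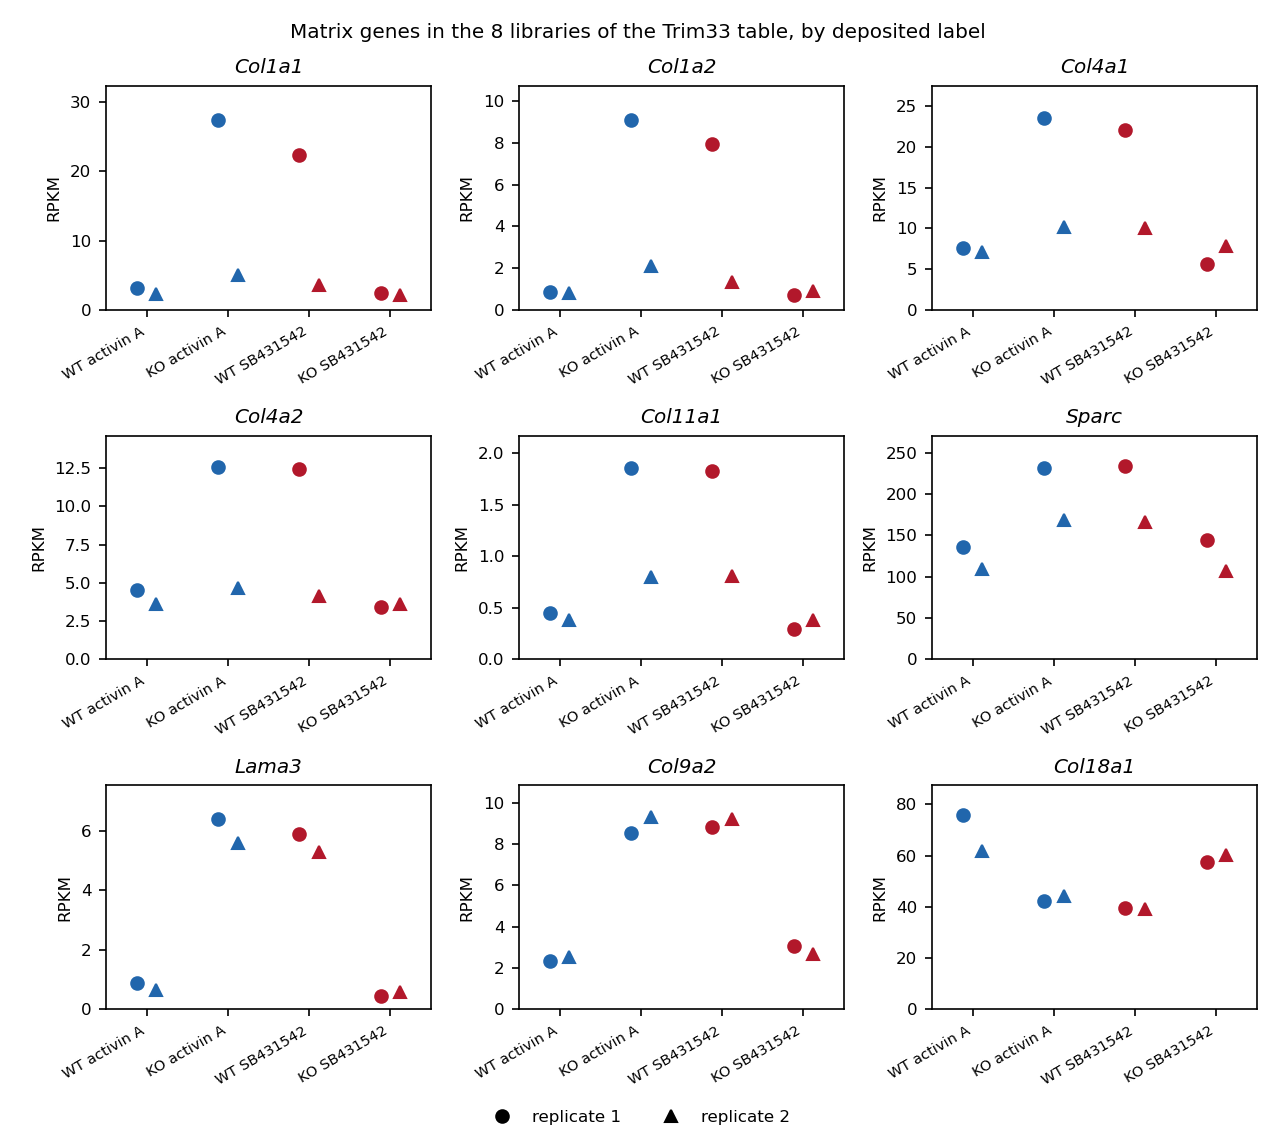
RPKM (y axes) of 9 matrix genes in the 8 libraries of the Trim33 table, grouped by deposited label (x axes), with circles for replicate 1, triangles for replicate 2, blue for activin A and red for SB431542. For Col1a1, Col1a2, Col4a1, Col4a2, Col11a1 and Sparc 2 libraries labelled replicate 1 stand above the rest, whereas for Lama3, Col9a2 and Col18a1 both replicates of a group lie together.

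Measured as replicate 2 minus replicate 1 on the log2(RPKM + 1) scale, 8 of 23 matrix genes differed by more than 0.5 in KO with activin A and 9 of 23 in WT with SB431542, where 6.98% and 9.67% of all tested genes did. Of the 23 genes, 18 and 21 were lower in replicate 2, against 50.3% and 49.1% of all genes. A like count was lower in replicate 2 of WT with activin A (18 of 23, against 44.6% of all genes) and of WT in the Pml table (16 of 20, against 52.5%), where the differences were smaller. The median size was 0.382 and 0.479, beside 0.162 and 0.187 over all genes. The largest were Col1a1 (-2.23 and -2.35), Col1a2 (-1.71 and -1.93), Col4a2 (-1.26 and -1.39) and Col4a1 (-1.13 and -1.07), followed in both groups by Col11a1, Col8a1 and Lama1, in KO with activin A by Col5a1 and in WT with SB431542 by Fn1 and Col5a2. Col5a1 read 3.88 and 2.36 RPKM in KO with activin A, and Col5a2 read 1.34 and 0.624 in WT with SB431542. Lama1 read 6.9996 and 4.32 in the first group and 7.06 and 3.98 in the second. Col8a1, a short-chain collagen of blood vessels and the cornea, was above 1 only in the 2 libraries that stood apart (1.10 and 1.09 RPKM). In KO with SB431542 only Fn1 (50.6 and 75.3 RPKM) and Dcn (0.330 and 1.60) differed by more than 0.5, beside 17.5% of all genes, and in WT with activin A 2 genes did, among them Lama1 (6.39 and 3.37 RPKM), beside 5.5%. In the Pml and arsenite tables no matrix gene differed by more than 0.5 between replicates, where 0.808% to 1.23% of all genes did, and the median sizes were 0.0761 to 0.106.

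**Figure D4:**
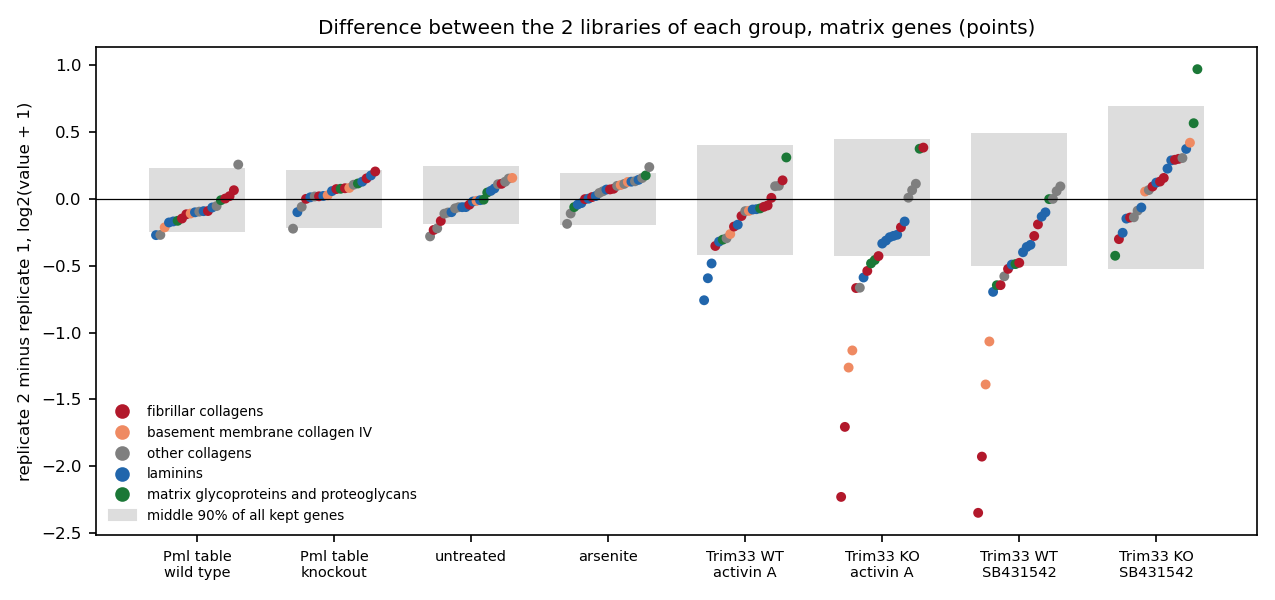
Replicate 2 minus replicate 1 in log2(value + 1) (y axis) for each expressed matrix gene (points, coloured by class) in the 8 groups (x axis), with grey boxes for the middle 90% of all tested genes. Collagen I and IV genes fall far under the box in KO with activin A and WT with SB431542, and no matrix gene passes 0.5 in the Pml and arsenite tables.

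The libraries of KO with activin A and WT with SB431542 resembled each other across all genes, by replicate number. The log2 values of replicate 1 of KO with activin A and replicate 1 of WT with SB431542 differed with an SD of 0.214 over 11914 genes, less than the SD between the replicates of either group (0.288 and 0.323). The SD between replicate 2 of these groups was 0.236, and that between replicate 2 of KO with SB431542 and of WT with activin A 0.245, so such likeness was not limited to the 2 libraries that stood apart. In the same 2 libraries the summed fibroblast and feeder markers were 331 and 318 RPKM, against 203 to 255 in the other 6. Acta2 of that list read 23.2 and 18.7 RPKM there, against 5.77 to 11.4 elsewhere. Fbn1 read 1.09 and 0.788 RPKM there and 0.834 in replicate 2 of KO with activin A. Pdgfrb, Twist2, Prrx1 and Fap were under 1 in all 8 libraries. The summed trophectoderm markers were 277 and 267 RPKM, against 153 to 207. Most of each trophectoderm sum was Krt8, Krt18 and Krt19, and Krt8 read 99.0 and 88.1 RPKM in these 2 libraries. Hand1 (13.5 and 10.9 RPKM) and Gata3 (3.28 and 3.17) were also highest there, but Cdx2 (0.981 and 1.26) and Eomes (2.58 and 1.77) were not. Cdx2 read 1.52 RPKM in replicate 1 of KO with SB431542, and Eomes read 3.12 and 2.75 in WT with activin A. Elf5 was under 1 in all 8 libraries. In the 2 libraries that stood apart, the primitive endoderm markers summed to 12.8 and 11.1 RPKM, against 7.31 to 9.66 elsewhere. Gata6, Sox17, Foxa2, Pdgfra, Hnf4a, Cubn and Thbd of that list were under 1 in all 8 libraries. Endothelial markers summed to 49.1 and 46.2 RPKM, against 38.8 and 38.4 in replicate 2 of those groups and 19.2 to 21.4 in the other 4 libraries. Most of each sum was Pecam1, at 44.4 and 41.1 RPKM in the 2 libraries and 14.6 to 16.2 in the last 4. Cdh5, Tie1 and Flt1 were under 1 in all 8 libraries. The part of these cell types in the collagen differences was not tested. With both libraries left out, a choice made after seeing the data, Lama3 and Col9a2 were still called with activin A (1.91 and 1.59, limma, adjusted p = 0.0270 and 0.0437), and Lama3 with SB431542 (-2.06, limma, adjusted p = 0.0187). The calls of Col18a1 in both comparisons (adjusted p = 0.156 and 0.178), of Col5a3 with activin A (0.215) and of Col9a2 with SB431542 (0.0533) were lost by limma with 1 library in 2 of the groups, each of which is assumed to vary like the others.

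Genes that act on the matrix were read against 6.61% of all genes higher and 2.82% lower with activin A, and 3.01% higher and 6.55% lower with SB431542. With activin A, 3 of 14 tested folding and crosslinking genes were higher in the libraries labelled KO and 0 lower (median 0.39): Serpinh1 by 0.75 and the collagen prolyl hydroxylases P3h3 by 1.01 and P4ha2 by 0.83. Of 13 matrix receptors 2 were higher and 0 lower (median 0.09), the integrin beta chains Itgb3 by 0.94 and Itgb5 by 0.53. P3h3 and Itgb3 had values of at least 1 only in KO with activin A and WT with SB431542. They were thus expressed by the rule only through those groups, which in part fixes their direction. Of 12 proteases and inhibitors 1 was higher and 0 lower (median 0.47), namely Timp1, an inhibitor of matrix metalloproteinases, by 1.18. Of 7 other basement membrane components 1 was higher and 0 lower (median 0.14), namely Smoc1, a SPARC-related protein, by 1.02. With SB431542, no tested gene of these lists was called higher in the libraries labelled KO, and 2 folding genes, 3 receptors, 1 protease or inhibitor and 1 other basement membrane component were lower (medians -0.25, -0.11, -0.54 and -0.13).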

How the data were processed

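RNA-seq expression values of 16 mouse ES cell libraries in 8 groups of 2 were used. The authors deposited 1 table in FPKM (Pml) and 1 in RPKM (arsenite), as the deposited names say, and the Trim33 table without a stated unit, whose values behave as RPKM. Bowtie2 2.3.3, featureCounts 2.0.1, SAMtools 1.9, FastQC 0.11.5, DESeq2 and the mm10 build are named per the submitters' processing notes, without saying which step made which table. Column names of the untreated libraries use a letter that their titles lack, so these were assigned to their group without a replicate match.

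Genes reaching a value of 1 in 2 or more columns of a table were kept, leaving 11648, 12136 and 11914 genes. Names turned into dates (27) were left out. Each table was fitted alone with limma 3.58.1 in R 4.3.3 on log2(value + 1), with an intensity trend. The Pml and arsenite fits held their 2 groups and the Trim33 fit all 4. P-values were adjusted by Benjamini-Hochberg over all kept genes, and a gene was called at an adjusted p under 0.05. Values with ± are log2 differences with their SE. Differences on this scale understate changes of genes with low values. The scripts were tested on simulated data. Alternatives were a pseudocount of 0.1, no filter, median-ratio scaling, quantile normalization, no trend, a replicate block, only the 2 groups compared, and each replicate left out. The matrix genes and the marker and pathway lists were chosen with earlier results of these data known. All kept matrix genes were counted. Library values were given for those called with a log2 difference of at least 1, with a group mean of at least 10, with replicates over 0.5 apart or next to the expression limit, and for Col4a1, Col4a2, Lamb1 and Lamc1; a few others were added for their role. From the other lists up to 4 called genes with the smallest p were named.

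The replicate numbers were not used to pair libraries in the main fits. Tables were not compared with each other in any test. One short window of promoter sequence per transcript start came from RefSeq (GRCm38.p6); for Col1a1, Fn1, Lamc1, Col5a2, Col9a3 and Col26a1 none was used here. Values of some genes that enter the counts are not reported here.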

Additional observations from a re-analysis of the deposited data

Results flagged for a closer look

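For 9 matrix genes the difference between the libraries labelled Trim33 KO and WT was not the same with activin A as with SB431542, by limma's test of that difference itself (Benjamini-Hochberg over 11914 genes). On the log2(RPKM + 1) scale it was 4.12 for Lama3 (adjusted p = 2.2e-05), 2.91 for Col9a2 (adjusted p = 7.8e-05), -1.23 for Col18a1 (adjusted p = 0.00185) and 1.39 for Col5a3 (adjusted p = 0.00757). It was 1.36 for Sparc (adjusted p = 0.0152), 1.44 for Col11a1 (adjusted p = 0.0253), 2.04 for Col4a1 (adjusted p = 0.0301), 2.97 for Col1a2 (adjusted p = 0.0394) and 3.49 for Col1a1 (adjusted p = 0.0482). Trim33 expression contradicted the genotype label of all 4 SB431542 libraries, so the sign of a difference labelled KO minus WT with SB431542 cannot be assigned to the knockout. Lama3, Col5a3, Col11a1 and Col1a2 were expressed by the rule only through KO with activin A and WT with SB431542, which in part fixes their direction.

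With replicate 1 of KO with activin A and replicate 1 of WT with SB431542 left out together, the differences of Lama3 (3.97, limma, adjusted p = 0.00256), Col9a2 (2.99, adjusted p = 0.00637) and Col18a1 (-1.20, adjusted p = 0.0323) were still called. Those of Col5a3 (1.15, limma, adjusted p = 0.0653), Sparc (0.89, adjusted p = 0.128), Col11a1 (0.78, adjusted p = 0.1095), Col4a1 (0.94, adjusted p = 0.144), Col1a2 (1.16, adjusted p = 0.0559) and Col1a1 (1.20, adjusted p = 0.0866) were not. Calls were also lost when single libraries, the others included, were left out: Col1a1, Col1a2 and Col11a1 were each lost in 6 of 8 such omissions (limma, adjusted p from 0.0880 to 0.126, 0.0801 to 0.0986 and 0.0517 to 0.0771). Col4a1 was lost in 5 (adjusted p from 0.0706 to 0.0847), and Sparc without WT with activin A replicate 2 (adjusted p = 0.0632). Without low-value filtering Col1a1, Col1a2, Col4a1 and Col11a1 were lost as well (limma, adjusted p = 0.118, 0.1005, 0.0785 and 0.0502). The cause was not tested.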

How the results depend on the processing

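No matrix gene called in the report reversed its direction under any alternative run. The counts of called genes that moved by more than 1.5 times were these: 29 higher with arsenite when low genes were not filtered; 5 higher with activin A when only its 2 groups were fitted and 0 lower without the 2 libraries that stood apart; with SB431542, 0 higher in either of these settings and 1 lower without the 2 libraries. For the difference between treatments, quantile normalization gave 5 higher and 3 lower, leaving out the 2 libraries gave 2 higher, and the replicate block gave 2 lower. The median replicate difference in WT with activin A was 0.300 with a pseudocount of 0.1. Leaving out both libraries was added after seeing the data. For each of these the cause was not tested.

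Leaving out each replicate in turn gave 13 to 14 higher and 4 lower in Pml KO, 16 to 17 and 5 to 6 with arsenite, 2 to 3 and 0 to 1 with activin A, 0 to 1 and 2 with SB431542, 0 and 0 for activin A against SB431542, and 3 to 10 and 1 to 2 for the difference between treatments. The 3 higher calls of that last comparison came without WT with activin A replicate 2, and the 10 without replicate 2 of KO with activin A or of WT with SB431542.

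The replicate differences of 2 groups correlated across genes at 0.02 in the Pml table and -0.04 in the arsenite table. In the Trim33 table the correlations ran from -0.14 to 0.60. The highest were 0.60 for KO with activin A and WT with SB431542, and 0.37 for KO with SB431542 and WT with activin A. In that table the numbers were thus not without relation, but they were not taken as pairs in the main fits. With the replicate number as a block, 13 were higher and 4 lower in Pml KO, 17 and 5 with arsenite, 4 and 1 with activin A, 1 and 3 with SB431542, and 10 and 2 for the difference between treatments; Sparc was then called with activin A (0.69, limma, adjusted p = 0.0080) and with SB431542 (-0.67, adjusted p = 0.0089).

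The 2 libraries of each group limit the precision of every value, the depth of the Pml table is unknown, and values near the expression limit rest on the fewest reads.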
